A study of Mus musculus with 6 samples.

Results

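Cbln1, Lgi1, Lrrtm4, Colq, Arfgef3 and Lypd1 are 6 genes best known from the nervous system, measured here in sorted mouse skin cells. They were chosen by their normalized counts in control and Zfp750 knockout libraries, which had been seen to differ strongly. All 6 were found by symbol among the 23934 genes of the deposited table of normalized counts, and all 6 passed the filter on low values that left 15935 genes. Their levels and fold changes are given as a description, with no test. Of the 6, 1 was higher and 5 were lower in the knockout.

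RNA was sequenced from skin cells sorted at day 50 for the red fluorescent protein tdTomato, in 3 control and 3 knockout libraries. The knockout samples carried 2 floxed alleles of the gene labelled ZNF750 (fl/fl), in mouse Zfp750, which encodes a transcription factor needed when keratinocytes differentiate. They also carried 1 allele of Lrig1-CreER or Lrig1-CreERT2, a recombinase that cuts at loxP sites once 4-hydroxytamoxifen activates it, and that is made where Lrig1 is active, as in stem cells of the upper hair follicle. Of the controls, 2 were wt/fl and 1 was wt/wt for the floxed gene, and all 3 carried the same recombinase, so recombinase and drug are shared by both groups. All animals received 4-hydroxytamoxifen as pups, from day 4 to 7 or from day 5 to 8. The Rosa26 genotype was -/- in all 3 knockouts and in 2 controls, and +/- in 1 control, which leaves the source of tdTomato unclear from the labels. The columns of the table match no numbered sample, and the libraries are called S2, S3 and S4 (control) and S5, S6 and S7 (knockout) after the column names.

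Values are the authors' normalized counts, which read as estimated reads divided by a size factor per library. Depth was 15310178 to 20705360 estimated reads per library. Zfp750 was at 41.9, 3.75 and 314 in S2, S3 and S4 against 4.90, 1.82 and 7.16 in S5, S6 and S7, so the label of S3, whose value is within those of the knockouts, cannot be checked by Zfp750. The basal keratinocyte gene Krt5 was also low in S3, at 62.5 against 2503 in S2 and 11805 in S4. Lrig1 is best known from epithelium, but fibroblast transcripts were abundant. The summed level of 8 dermal fibroblast markers (3 fibrillar collagen genes, Pdgfra, Dcn, Lum, Dpt and Pi16) was 3004595 to 8934286 in control and 923496 to 1229621 in knockout libraries. Most of this was collagen: the other 5 summed to 169304 to 374286 and 135777 to 196339, which overlap. That of 8 basal keratinocyte markers was 1318 to 26745 and 4779 to 25303.

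Synapses are built and held by secreted and membrane proteins that bridge the gap between cells. Cerebellin 1, from Cbln1, is a secreted protein of the C1q family that ties presynaptic neurexins to delta glutamate receptors, as in the cerebellum. Lgi1 encodes a secreted leucine-rich protein that binds ADAM22 and ADAM23 and is mutated in a familial epilepsy. Lrrtm4 encodes a postsynaptic leucine-rich transmembrane protein whose ligands include neurexins and heparan sulfate proteoglycans such as glypicans. Colq encodes the collagen-like tail that anchors acetylcholinesterase in the basal lamina of the neuromuscular junction. Arfgef3 encodes BIG3, a large protein related to the exchange factors of ARF GTPases, and Lypd1 a small lipid-anchored Ly6 protein that acts on nicotinic acetylcholine receptors. The last 2 are genes of neurons rather than organisers of synapses in the strict sense.

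RefSeq promoter sequences of GRCm38.p6 were matched by symbol for 4 of the 6 genes, Lgi1, Lrrtm4, Arfgef3 and Lypd1. The 250 bases before the most upstream RefSeq start of each were searched on both strands. For Lgi1, Arfgef3 and Lypd1 the GENCODE start lies inside that window, with 99, 59 and 77 of its bases upstream. The letters searched were CCNNAGGC (bound by ZNF750), TGANTCA (AP-1), TGACGTCA (CREB), CACCC (KLF factors) and TATAAA (the TATA box), which can overlap one another. The stretches that held matches are shown because these genes were low in the same 3 libraries. Capitals mark the matches on either strand, and only bases upstream of the GENCODE start, or 30 bases around a match, are printed.
Lgi1, chr19:38264437-38264535, plus strand: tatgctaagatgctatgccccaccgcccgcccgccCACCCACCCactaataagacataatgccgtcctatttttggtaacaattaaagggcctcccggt
Lrrtm4, chr6:80018627-80018876, plus strand: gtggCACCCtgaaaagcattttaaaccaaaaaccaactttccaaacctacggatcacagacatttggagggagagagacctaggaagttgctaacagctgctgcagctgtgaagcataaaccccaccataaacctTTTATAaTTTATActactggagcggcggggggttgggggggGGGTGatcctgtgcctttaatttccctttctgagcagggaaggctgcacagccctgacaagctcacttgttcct
Lypd1, chr1:125912980-125913009, minus strand: ggagggaggcaGCCTATGGccaattggcca
The KLF letters were in 2 of the 4 windows, those of Lgi1 and Lrrtm4, and in 52.0% of the 32851 promoter windows of the same length. The ZNF750 letters were in 1 of the 4 windows, that of Lypd1, and in 20.4% of all windows. That match lies upstream of the RefSeq starts but within the GENCODE span of Lypd1. The TATA letters were in Lrrtm4 alone among the 4, on the opposite strand, and in 12.4% of all windows. The AP-1 and CREB letters were in none of the 4, and in 6.75% and 1.55% of all windows. The Arfgef3 window held none of the letters searched. The 4 genes thus shared no motif of these 5, and a match of letters is not evidence of binding.

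Cbln1 (ENSMUSG00000031654, chromosome 8, 87468405 to 87472609 on the minus strand of GRCm38 in GENCODE M21), the secreted ligand of the group, was listed at 0 in S2, S3 and S4. It was at 463, 1074 and 1678 in S5, S6 and S7. The groups did not overlap, and S5 was the lowest of the knockouts, 3.63-fold under S7. A count of 0 allows up to 3 reads, or normalized values of 3.81, 3.75 and 2.52 in the 3 controls. Against that floor per library, the knockout mean of 1071 ± 608 (SD, n = 3) was at least 318.8-fold higher. Its fitted log2 fold change of 6.70 ± 0.44 (SE) is set by the pseudocount of 0.5 per 1000000 and is no bound: it was 9.01 at 0.1 and 4.75 at 2 per 1000000. In bulk samples, a change in the number of cells of a type and a change in RNA per cell cannot be told apart.

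The 5 other genes held at least 84.9 normalized counts in every control and at most 32 reads in any knockout. Groups did not overlap for any of the 6, as for 28.8% of all tested genes. At an adjusted p under 0.05, 6.71% of tested genes were called, 4.12% higher and 2.59% lower in the knockout. Nothing is read from the 6 here, since this contrast chose them. The fitted log2 fold changes of the 5, given below at a pseudocount of 0.5 per 1000000, were -6.45 to -5.09 at 0.1 and -4.19 to -2.81 at 2 per 1000000, and the order of the 5 by size changed with it.

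Lgi1 (ENSMUSG00000067242, chromosome 19, 38264536 to 38312214, plus strand), a secreted synaptic ligand like Cbln1, was at 411, 574 and 214 in S2, S3 and S4. In S5, S6 and S7 it was at 6.93, 0 and 2.99. The control mean was 400 ± 180 and the knockout mean 3.31 ± 3.48 (SD, n = 3 each), a 121-fold ratio of means with a fitted log2 fold change of -4.97 ± 0.41 (SE). The knockout values stand for 7.07, 0 and 3.76 estimated reads, so their order cannot be read at this depth.

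Lrrtm4 (ENSMUSG00000052581, chromosome 6, 80018877 to 80810143, plus strand), the postsynaptic membrane protein, was at 211, 992 and 84.9 in S2, S3 and S4. In S5, S6 and S7 it was at 18.6, 0 and 1.84. It varied most among the controls, with S3 11.7-fold above S4, and its gap was the narrowest of the 5: the lowest control stood 4.56-fold above the highest knockout. The means were 429 ± 491 and 6.82 ± 10.3, and the fitted log2 fold change was -4.29 ± 0.84 (SE). Knockout S5 held 19 reads, whose exact 95% Poisson interval of 11.2 to 29.1 in normalized units lay above that of S7 (0.193 to 5.75) and above 2.73, the value of 3 reads in S6.

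Colq (ENSMUSG00000057606, chromosome 14, 31523082 to 31591343, minus strand), the acetylcholinesterase tail, was at 494, 1149 and 180 in S2, S3 and S4. In S5, S6 and S7 it was at 17.7, 5.47 and 3.98. As for Lrrtm4, S5 was the highest knockout and S3 the highest control. The means were 608 ± 494 and 9.03 ± 7.50 (SD, n = 3 each), with a ratio of 67.3, and the fitted log2 fold change was -4.80 ± 0.63 (SE).

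Arfgef3 (ENSMUSG00000019852, chromosome 10, 18581839 to 18743949, minus strand), the ARF exchange factor relative, was at 1329, 1616 and 442 in S2, S3 and S4. In S5, S6 and S7 it was at 31.4, 10.9 and 18.3. These values come from 32, 12 and 23 reads, so the transcript was still detected in every knockout. Its means were 1129 ± 612 and 20.2 ± 10.4, and its fitted log2 fold change was -5.14 ± 0.50 (SE).

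Lypd1 (ENSMUSG00000026344, chromosome 1, 125867622 to 125913101, minus strand), the Ly6 protein, was at 297, 516 and 104 in S2, S3 and S4. In S5, S6 and S7 it was at 6.74, 5.60 and 4.69. The knockouts were close together, at 5.68 ± 1.03 (SD, n = 3), against 306 ± 206 in the controls, for a log2 fold change of -4.15 ± 0.53 (SE).

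**Figure D1:**
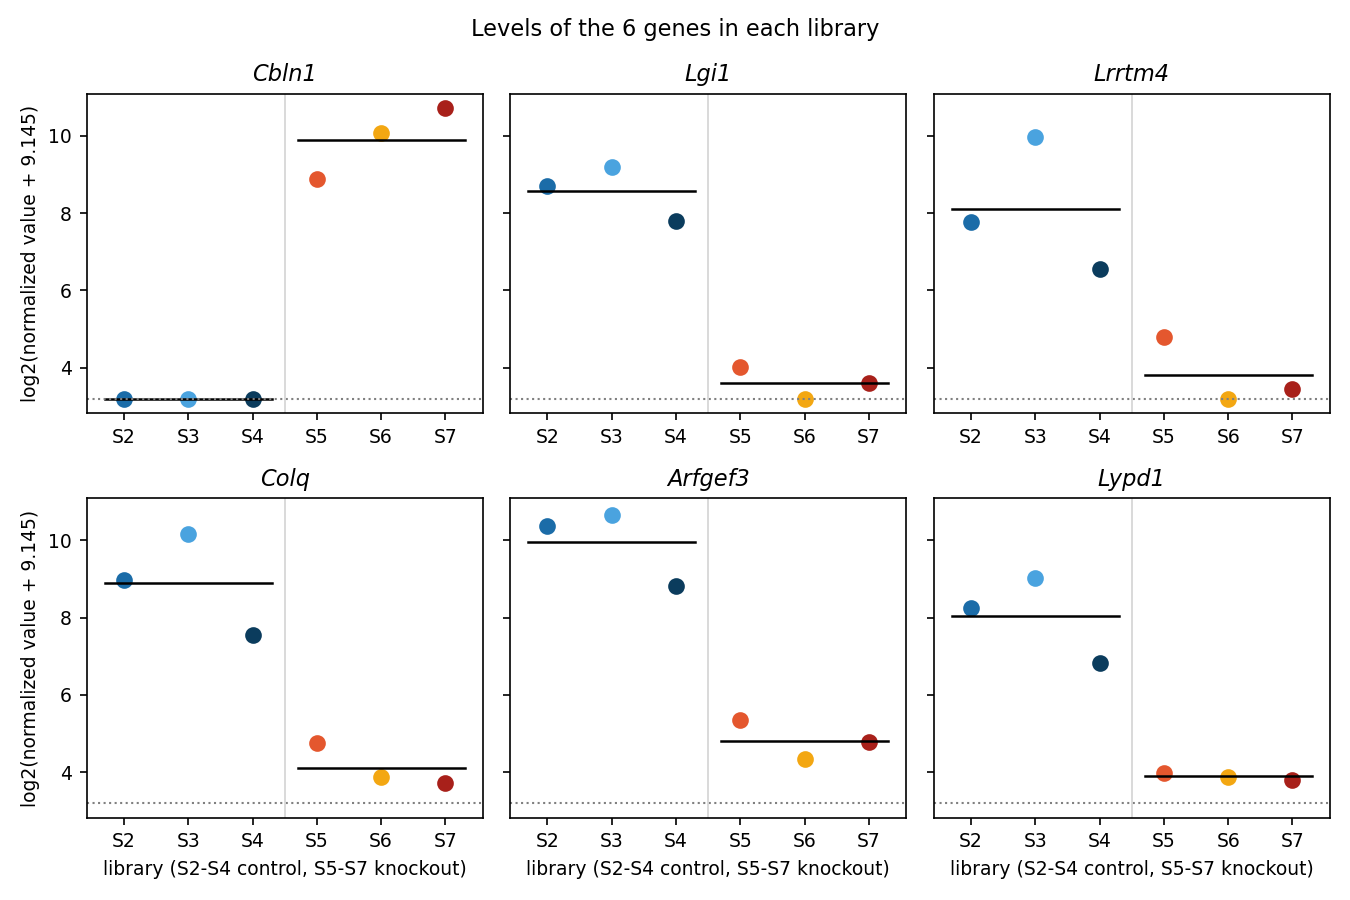
Level of each of the 6 genes, as log2(normalized value + 9.145), in control libraries S2 to S4 and knockout libraries S5 to S7. Points are libraries, black bars are group means and the dotted line is a value of 0. Cbln1 sits on the dotted line in all 3 controls, and the other 5 genes are high in the controls, with S3 above S2 and S2 above S4 in each.

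Compared per length of merged exons, so that genes can be set side by side, Colq was the highest of the 5 in each control, at 130, 302 and 47.3 normalized counts per 1000 bases in S2, S3 and S4. Arfgef3 was at 91.2, 111 and 30.3. Lypd1 was at 42.2, 73.3 and 14.8 and Lgi1 at 36.2, 50.6 and 18.8 on the same scale. Lrrtm4 had no fixed place, being lowest of the 5 in S2 (34.3) and S4 (13.8) and the second highest in S3 (161). Lypd1 was above Lgi1 in S2 and S3 and under it in S4. Arfgef3 was above Lypd1 and Lgi1 in each control, and the order below Colq otherwise differed between libraries. Taken over the controls, the ranges of neighbouring genes overlapped, and their order was not tested. Cbln1 reached 152, 354 and 552 per 1000 bases in S5, S6 and S7.

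The 5 genes shared an order of normalized counts among the controls: S3 was highest and S4 lowest for 5 of 5. The normalized library totals had this order too, at 19455500, 25861500 and 16167800 in S2, S3 and S4. As a share of its library's total, Arfgef3 was higher in S2 than in S3, so the 5 of 5 depends on the normalization. The rest of the 5 kept the order as shares, Lgi1 by a small margin. In normalized counts, the same order was found in 199 of the other 408 genes called lower in the knockout (48.8%) and in 4059 of 15935 tested genes (25.5%). The abundant fibroblast genes decorin (Dcn), at 198695, 236142 and 96490 in S2, S3 and S4, and lumican (Lum), at 55483, 94410 and 28544, had it too. The fibroblast receptor gene Pdgfra had the order by a small margin, at 10932, 11482 and 10886. In the knockouts Dcn was at 98647, 86006 and 67603 in S5, S6 and S7 (log2 fold change -0.99 ± 0.52 SE, limma adjusted p = 0.300). Pdgfra was higher there, at 29489, 23877 and 25506 (1.24 ± 0.21, limma adjusted p = 0.0165), a call that did not hold without S2, S6 or S7, with adjusted p up to 0.101.

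Ratios to these genes, chosen after their values were seen, give the 5 genes per unit of fibroblast transcript. Per 1000 Dcn, Lgi1 was at 2.07, 2.43 and 2.22 in S2, S3 and S4, a spread of 1.18-fold against 2.68-fold for its own level. In S5, S6 and S7 it was at 0.0703, 0 and 0.0442. The control spread of Lgi1 was 1.23-fold per Lum and 1.52-fold per Col1a1, but 2.55-fold per Pdgfra and 2.78-fold per Dpt, close to that of its own level. Per Dcn, the other 4 genes spread more than Lgi1 over the controls, by 1.49-fold for Arfgef3, 2.02-fold for Lypd1, 2.61-fold for Colq and 4.77-fold for Lrrtm4. Per 1000 Dcn, Arfgef3 was at 6.69, 6.84 and 4.58 in control and 0.318, 0.127 and 0.271 in knockout libraries. The groups did not overlap for any of the 5 per Dcn, Lum, Dpt, Pdgfra or Col1a1. Nothing is read from that, since this contrast chose the 5. For Lrrtm4 per 1000 Col1a1 the gap was narrow, at 0.0594 in S4 against 0.0457 in S5. The ratio of group means was 23.5 to 58.6 over the 5 genes per Dcn, 126 to 304 per Pdgfra, and 7.19 to 19.0 per Col1a1, a gene with a log2 fold change of its own of -2.67 ± 1.21 (SE, limma adjusted p = 0.237). The part of cell makeup in these differences was not tested.

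**Figure D2:**
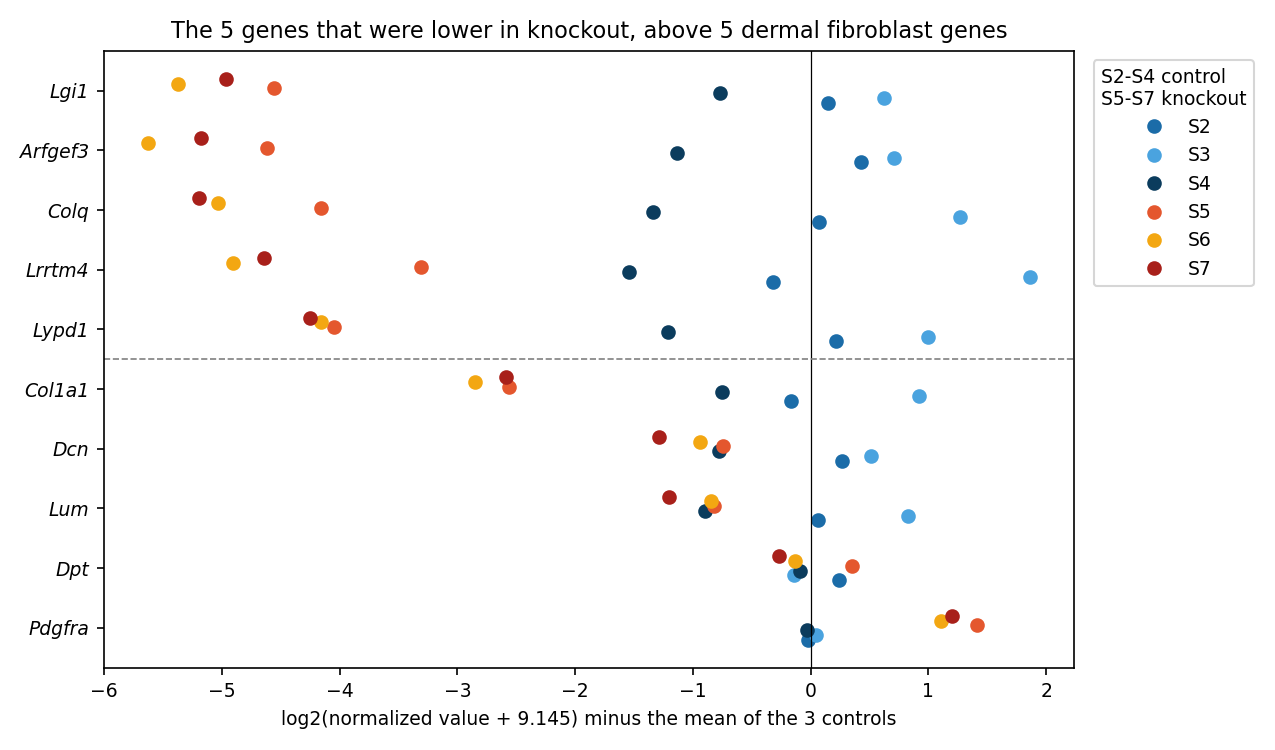
Each library's log2(normalized value + 9.145) minus the mean of the 3 controls, for the 5 genes lower in the knockout (above the dashed line) and 5 dermal fibroblast genes (below it). Blue points are controls and red to yellow points knockouts. All knockout points of the 5 upper genes lie left of those of Col1a1, while Pdgfra lies to the right of 0.

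Markers of other cells were read beside these levels. The 8 neuron markers with a row in the table, of 13 listed, summed to 147 to 185 in control and 104 to 195 in knockout libraries, and 0 of the 4 tested were called. Of these 8, the synaptic vesicle gene Syp averaged 35.1 ± 2.72 over the controls (SD, n = 3) against 17.3, 12.1 and 14.3 in S5, S6 and S7, without overlap, and did not pass (-0.91 ± 0.28 SE, limma adjusted p = 0.106). Nefm, a neurofilament gene under the filter, went the other way without overlap. It was at 0, 0 and 0.841 in S2, S3 and S4 against 3.92, 3.65 and 2.39 in S5, S6 and S7. The other 7 neuron markers were above 0 in every library. The 10 Schwann cell markers, genes of the glia of skin nerves, summed to 1774 to 1905 in control and 2221 to 3517 in knockout libraries, and 1 of 9 tested, Gldn, was called higher (1.35 ± 0.32, limma adjusted p = 0.0496). Gldn lost this call without S2, S3, S4, S5 or S6, with adjusted p up to 0.140. The 10 skeletal muscle markers, relevant to Colq, summed to 602, 4407 and 7200 in S2, S3 and S4 and to 459 to 1147 in the knockouts, and 0 of 8 tested were called. Of the 10, Ckm, Myh4 and Tnnt3 were lower in every knockout without overlap and did not pass (limma adjusted p = 0.0677, 0.0725 and 0.1365). The groups overlapped for the rest of the 10. Colq itself was at 494, 1149 and 180 in S2, S3 and S4. The 10 dermal papilla markers summed to 1294 to 2829 in control and 3866 to 5006 in knockout libraries, with 1 of 9 tested, Crabp1, called higher (4.02 ± 0.32, limma adjusted p = 0.00111). Without Crabp1 the other 9 summed to 1180 to 2639 and 1418 to 2924, which overlap. Of 6 sebocyte markers tested 3 were called higher, and of these Elovl3, a fatty acid elongase gene, kept its call without any 1 library (3.76 ± 0.52, limma adjusted p = 0.00827). Awat1 lost its call without S2, S3 or S6, at up to 0.0786, and Plin2 without S2, S3 or S7, at up to 0.0758. Calls in the other direction were 1 of 8 smooth muscle and pericyte markers tested and 1 of 4 differentiated keratinocyte markers tested. These were Des (-1.20 ± 0.19, limma adjusted p = 0.0132) and Krt10 (-1.77 ± 0.42, limma adjusted p = 0.0496). Des lost its call without S2, at 0.0613, and Krt10 without S2, S3, S4, S6 or S7, at up to 0.147. The 5 adipocyte markers summed to 33.6 to 130 in control and 169 to 2645 in knockout libraries, without overlap, and 0 of 3 tested were called. The part of these cell types in the levels of the 6 genes was not tested.

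Partners and relatives of the 6 genes, in 7 lists with 158 genes of which 108 were tested, were called in both directions. Of the 108, 10 were called higher and 7 lower in the knockout (15.7%, against 6.71% of all tested genes), with a median log2 fold change of -0.092 against 0.014 over all tested genes. That count depended on single libraries: it was 4 without S2, 2 without S6 and 4 without S7. Without S3, S4 and S5 it was 12, 18 and 17, or 10.6%, 15.9% and 15.0%. All genes tested in those fits were called at 3.39%, 7.70% and 6.17%. The shares without S2 and S7 were 3.54% and 3.64%, against 1.95% and 3.01% of all genes tested. Without S6 the share was 1.82%, against 2.03% of all genes tested in that fit. Only Lrrtm3 and Gpc1, of the 17, kept their calls in each of the 6 fits that left out 1 library.

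For Cbln1, few partners were measurable. Of 13 cerebellin and C1q-like genes 3 were tested, and 1 was called higher. C1ql1, a C1q-like ligand of climbing fibre synapses, was at 0, 7.49 and 0 in S2, S3 and S4 against 27.5, 45.6 and 52.5 in S5, S6 and S7 (log2 fold change 2.16 ± 0.40 SE, limma adjusted p = 0.0227). The C1ql1 call was lost when S2, S6 or S7 was left out, with adjusted p up to 0.108. Grid1, which encodes a delta receptor, did not overlap between groups, at 2.50 to 14.0 in control and 18.3 to 37.3 in knockout libraries, and did not pass (1.17 ± 0.41, limma adjusted p = 0.145). Nrxn2 was the only neurexin tested, at 225 to 251 and 165 to 288 (-0.17 ± 0.23, limma adjusted p = 0.706). The relatives Cbln2, at 1.25 to 2.52 in control and 1.96 to 17.5 in knockout libraries, and Cbln3, at 6.35 to 15.0 and 7.84 to 13.7, were under the filter. The groups overlapped for both relatives, and Cbln2 was highest in S7, as Cbln1 was.

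Of 13 LGI family, ADAM receptor and scaffold genes, all tested, 2 were called higher and 1 lower, with a median of -0.31. Lgi4, the family member that Schwann cells use in myelination, was lower along with Lgi1, at 1220, 2074 and 979 in S2, S3 and S4 against 528, 170 and 233 in S5, S6 and S7 (-2.25 ± 0.44 SE, limma adjusted p = 0.0267). It lost this call without S2, S3, S6 or S7, with adjusted p up to 0.0975. Lgi2 went the other way in value, at 397 to 996 in control and 1237 to 2787 in knockout libraries, and did not pass (1.33 ± 0.41, limma adjusted p = 0.105). Lgi3 overlapped between groups (-0.81 ± 0.60, limma adjusted p = 0.465). Of the LGI1 receptors, Adam23 had lower values in all 3 knockouts, at 241 to 827 against 1042 to 1558, without passing (-1.58 ± 0.43, limma adjusted p = 0.0757). Adam22 (-0.93 ± 0.35, limma adjusted p = 0.166) and Adam11 (0.56 ± 0.28, limma adjusted p = 0.278) did not pass either. The scaffold genes Dlg2 (1.72 ± 0.25, limma adjusted p = 0.0100) and Dlg3 (0.68 ± 0.16, limma adjusted p = 0.0483) rose. Dlg2 lost its call without S6, at 0.0526, and Dlg3 without any 1 library, at up to 0.163.

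Of 16 LRRTM family, proteoglycan and presynaptic receptor genes, 14 were tested, with 1 higher and 1 lower. Lrrtm3, another member of the family, was at 142, 50.0 and 90.0 in S2, S3 and S4 against 2.94, 0.911 and 1.59 in S5, S6 and S7 (-3.14 ± 0.40 SE, limma adjusted p = 0.00601). Among the controls S3 was its lowest library, whereas S3 was the highest for Lrrtm4. Lrrtm1, under the filter, was at 6.35, 38.7 and 11.8 in control and 0.981, 0.911 and 3.98 in knockout libraries, and Lrrtm2 overlapped between groups (-0.23 ± 0.54, limma adjusted p = 0.837). The glypican gene Gpc1, a heparan sulfate proteoglycan, rose from 221, 158 and 404 in S2, S3 and S4 to 3796, 12172 and 13996 in S5, S6 and S7 (5.11 ± 0.53, limma adjusted p = 0.00309). Gpc4, a known LRRTM4 ligand, had lower values in the knockouts, at 1207 to 1803 against 2684 to 4769, and did not pass (-1.08 ± 0.27, limma adjusted p = 0.0577).

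Of 51 other synaptic adhesion and secreted organiser genes, 36 were tested, with 5 higher and 4 lower and a median of -0.099. The latrophilin genes Adgrl1 (1.30 ± 0.23 SE, limma adjusted p = 0.0189) and Adgrl2 (0.97 ± 0.19, limma adjusted p = 0.0289), adhesion receptors that bind teneurins, rose. Mdga1, which blocks neuroligins, fell by 1.31 on the log2 scale (SE 0.22, limma adjusted p = 0.0164), and the nectin-like Cadm3 fell by 1.84 (SE 0.35, limma adjusted p = 0.0261). The other 5 called, named after their values were seen, were Adgrl3, Nlgn2 and Sparcl1 among the rises and Elfn2 and Sparc among the falls. Each of these 9 lost its call without at least 2 of the 6 libraries in turn, S2 and S6 among them for all 9, with adjusted p up to 0.215.

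Of 19 acetylcholinesterase and neuromuscular junction genes, 12 were tested and 1 was called. Lrp4, the agrin receptor, was at 1860 to 4152 in control and 796 to 1076 in knockout libraries (-1.54 ± 0.30 SE, limma adjusted p = 0.0261), a call that did not hold without S2, S5, S6 or S7 at up to 0.0895. The enzyme that COLQ anchors, from Ache, overlapped between groups at 22.7 to 53.4 and 40.6 to 106 (0.80 ± 0.40, limma adjusted p = 0.285). Butyrylcholinesterase, from Bche, which COLQ can also anchor, was at 171 to 648 and 55.9 to 289 (-1.56 ± 0.65, limma adjusted p = 0.204). The anchors of COLQ, perlecan from Hspg2 (0.084 ± 0.305, limma adjusted p = 0.899) and the kinase from Musk (0.61 ± 0.33, limma adjusted p = 0.314), did not pass.

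Of 20 ARF exchange factor and ARF genes, all tested, only Cyth3 was called (0.92 ± 0.19 SE, limma adjusted p = 0.0333), and it lost the call without any 1 library, at up to 0.0968. The near relatives of Arfgef3 did not pass, and Arfgef1 was at 1444 to 1756 in control and 1371 to 1458 in knockout libraries (-0.14 ± 0.14, limma adjusted p = 0.615). Arfgef2 was at 950 to 1155 and 1092 to 1313 (0.15 ± 0.15, limma adjusted p = 0.609).

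Of 26 Ly6 and neuronal nicotinic receptor genes, 10 were tested and 0 were called by limma. An unadjusted limma p under 0.05 was found for 4 of the 10, and for 3697 of all 15935 tested genes. The surface antigen genes Ly6a (-0.81 ± 0.30 SE, limma adjusted p = 0.160) and Ly6c1 (-0.94 ± 0.32, limma adjusted p = 0.137) did not pass. Lypd6, a relative of Lypd1, had lower values in all 3 knockouts, at 2.73 to 7.84 against 21.0 to 81.2, and did not pass (-1.85 ± 0.45, limma adjusted p = 0.0558). Lynx1, the prototype of the neuronal Ly6 proteins, overlapped between groups (-0.16 ± 0.23, limma adjusted p = 0.728). Lypd6b, under the filter, was at 24.1, 0 and 86.6 in control and 0, 2.73 and 9.55 in knockout libraries.

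**Figure D3:**
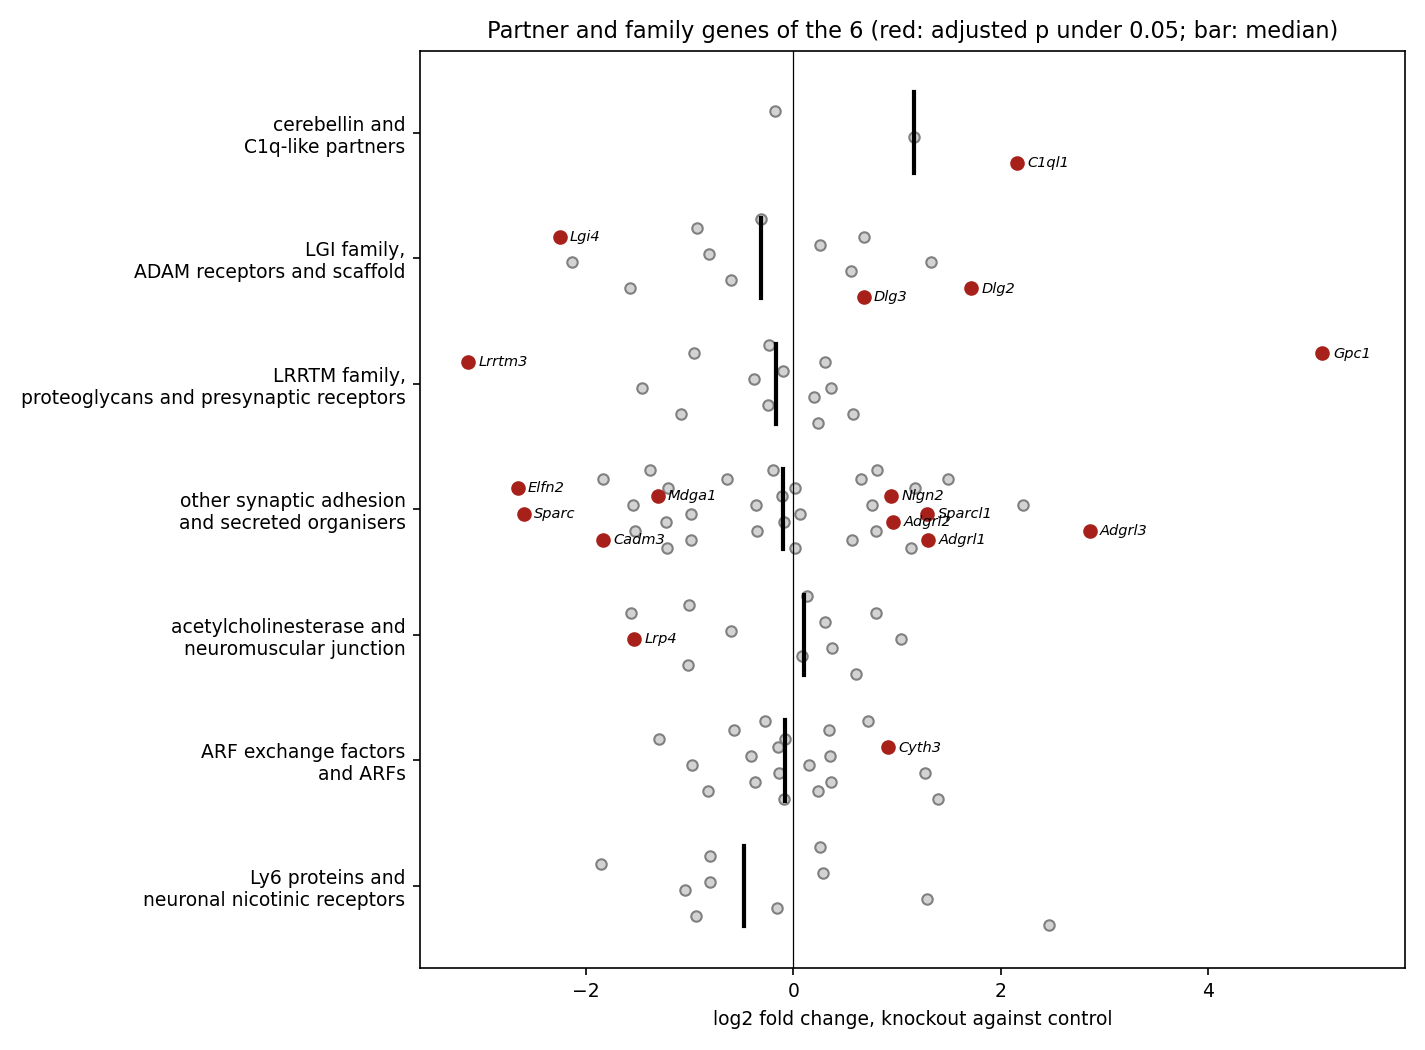
Log2 fold change, knockout against control, of the 108 tested partner and family genes in 7 lists. Points are genes, red where the adjusted p is under 0.05, and black bars are list medians. The 10 red points on the right and 7 on the left are spread over 6 of the lists, with Gpc1 at 5.11 and Lrrtm3 at -3.14 farthest out.

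Sequence shared with other genes touched several of the 6. Of the 50-base windows of each gene's GENCODE transcripts, 0 occurred in a transcript of a family relative. The Cbln1 windows occurred in no other gene on either strand. Of the Lgi1 windows, 9.89% occurred in Gm3888, a processed pseudogene that was at 57.1, 67.8 and 20.7 in S2, S3 and S4 against 1.89, 1.82 and 0.192 in S5, S6 and S7. Gm3888 and Lgi1 thus had the same order of controls, and how reads that fit both were assigned is not stated. Of the Lypd1 windows, 16.6% lay on the opposite strand of Gpr39, a receptor gene whose span overlaps Lypd1 by 6241 bases in the table's own coordinates. Gpr39 was at 43.6, 9.97 and 39.7 in control and 88.4, 54.6 and 67.7 in knockout libraries (1.09 ± 0.44 SE, limma adjusted p = 0.189), opposite in sign to Lypd1. No source used here says whether reads were counted by strand.

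Transcripts annotated within or across the genes were low. Gm2694, a long noncoding gene on the opposite strand that spans Cbln1, was at 3.81, 0 and 0 in S2, S3 and S4 against 3.92, 22.8 and 20.7 in S5, S6 and S7. Inside the span of Lrrtm4 on its own strand lie Gm44240, Gm44230 and Gm44229, each listed at 0 in all 3 knockouts. In S2, S3 and S4 Gm44240 was at 3.81, 26.2 and 7.57, with S3 highest as for Lrrtm4. Gm4409, opposite to the start of Lrrtm4 and matching 24.0% of its windows, was at 24.8 in S3 and under 2 in the other libraries. Gm49387, which shares 4.08% of the Colq windows, was at 19.7 in S2 and under 1 elsewhere.

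Of the 60 genes that flank the 6, within 5 places on either side, 43 were tested, and 6 were called higher and 1 lower (16.3%, against 6.71% of all tested genes). Beside Cbln1, Zfp423, a zinc finger gene, had a log2 fold change of -1.07 ± 0.33 (SE, limma adjusted p = 0.110). Beside Lgi1, Fra10ac1 (-0.21 ± 0.32, limma adjusted p = 0.744) and Slc35g1 (-0.71 ± 0.68, limma adjusted p = 0.578) did not pass, nor did Eaf1 beside Colq (0.20 ± 0.17, limma adjusted p = 0.534). Hebp2 beside Arfgef3 (-1.65 ± 0.46, limma adjusted p = 0.0819) and Nckap5 beside Lypd1 (-0.38 ± 0.34, limma adjusted p = 0.549) did not pass either. The 7 called, named after their values were seen, were N4bp1 and Gm10638 near Cbln1, Rbp4 near Lgi1, Reg1 and Reg3g near Lrrtm4, Ankrd28 near Colq and Dpp10 near Lypd1. N4bp1, Gm10638 and Rbp4 moved in the direction of their neighbour and the other 4 against it, and Reg1 and Reg3g lie 1590 and 1550 kb from Lrrtm4. Of these 7, Reg1 and Dpp10 kept their calls in each fit that left out 1 library, and the others lost theirs without S2 and without S6 at least, with adjusted p up to 0.178.

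**Figure D4:**
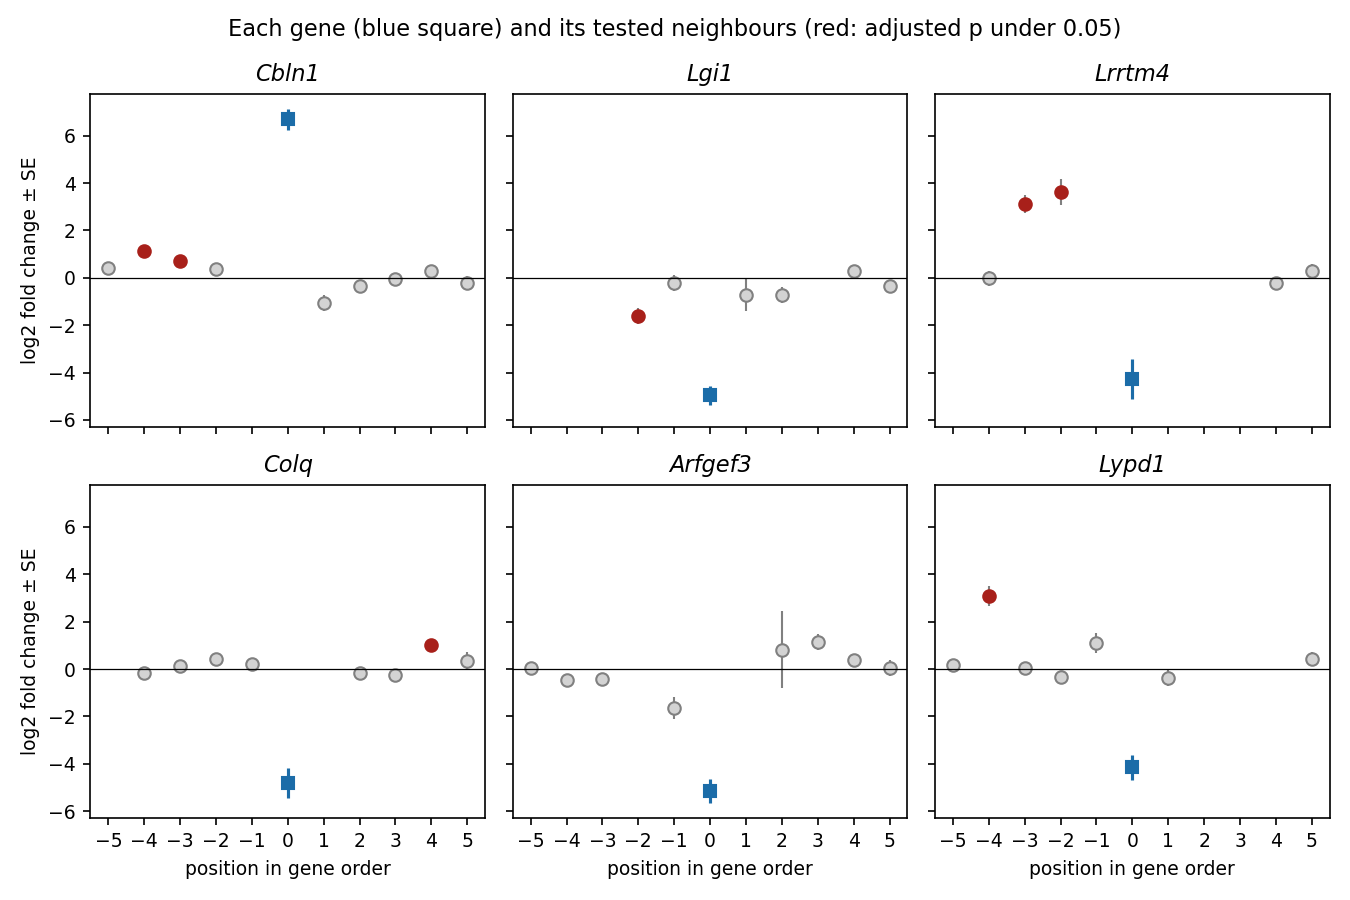
Log2 fold change with its SE for each of the 6 genes (blue squares, at position 0) and for the tested genes within 5 places on either side in gene order. Red points have an adjusted p under 0.05. Neighbours of Lgi1, Colq and Arfgef3 lie within 2 log2 units of 0, while the 6 genes lie beyond 4.

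The genes whose pattern over the 6 libraries was most like each of the 6, by Pearson r of log2 values, were sought among the tested genes. The 6 themselves, predicted genes and pseudogenes were left out of this ranking. Lgi1 and Arfgef3 had r = 0.9975 with each other, above that of any gene named below for Lgi1. These correlations, all over 0.994, rest on 6 libraries in 2 separate groups and are descriptions. Most like Cbln1 were Pla2g15, a lysosomal phospholipase, Prg4, which encodes lubricin, and Spp1, which encodes osteopontin (r = 0.998, 0.997 and 0.997). Spp1 was at 14.0, 17.5 and 17.7 in S2, S3 and S4 against 989, 2136 and 1923 in S5, S6 and S7. Most like Lgi1 were Kctd14, the ferritin receptor gene Scara5 and Jakmip3. Scara5 was at 17185, 26025 and 12640 in control and 3323, 2501 and 2999 in knockout libraries (-2.60 ± 0.28 SE, limma adjusted p = 0.00357).

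Most like Lrrtm4 were the fibrillar collagen gene Col3a1 (r = 0.999), the neurexophilin gene Nxph4 and Creb3l1, a regulator of collagen secretion. Nxph4, whose family binds neurexins, was at 191, 391 and 113 in control and 58.8, 31.0 and 28.6 in knockout libraries (-2.19 ± 0.46 SE, limma adjusted p = 0.0343), a call that did not hold without S2, S3, S6 or S7 at up to 0.129. Most like Colq were Sparc, a collagen-binding matrix protein gene, Adamts17 and Adh7. Most like Arfgef3 were Ndufa4l2, a mitochondrial complex subunit relative, Syncrip and Kctd14. Most like Lypd1 were Cdh18, a cadherin of the nervous system, Oxnad1 and Mamld1. Cdh18 was at 219, 321 and 68.1 in S2, S3 and S4 against 0.981, 0 and 0 in S5, S6 and S7 (-4.25 ± 0.52 SE, limma adjusted p = 0.00567), and kept its call in each of the 6 fits that left out 1 library. Col3a1, Syncrip and Mamld1 did not pass the test, with log2 fold changes of -1.68 ± 0.93, -0.35 ± 0.14 and -0.64 ± 0.18 (SE).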

How the data were processed

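Sorted mouse skin cells were sequenced in 3 control and 3 knockout samples. The table that the authors deposited holds normalized counts, treated here as a signal: 78.7% to 81.2% of values up to 1000 reads per library are whole multiples (tolerance 0.05) of the worth of 1 read, and the rest are fractions, so no count model was run. TopHat2 2.1.0 and Partek 9.0.20.0202 appear in the submitters' processing notes. No source used here gives the genome build, the annotation or the strand setting. GENCODE M21 holds 97.0% of the gene IDs, and its GRCm38 positions are printed.

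Groups were compared with limma 3.58.1 in R 4.3.3 (empirical Bayes with trend, 2-sided) on log2(value + 9.145), a pseudocount of 0.5 per 1000000 of the mean library total, which understates changes of low genes. Genes had to reach 1 per 1000000 in at least 3 libraries, or in as many as the smaller group holds when a library was left out. P-values were adjusted by Benjamini-Hochberg over all tested genes, and calls are at 0.05. The fit was also run on simulated counts with a fixed spread, which do not model the differences in makeup between these libraries.

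The 6 genes and all lists were chosen with earlier results of these data known. Named genes are the 6, Zfp750, the 4 lowest adjusted p among called genes of a list (2 highest means where none was called), near relatives and direct partners, the nearest gene on each side and the 3 most alike in pattern. Nothing in the labels says that each sample is a separate mouse, and p-values then describe sample-to-sample spread only, which can be technical. Intervals and floors cover counting error only. Alternatives were another pseudocount, no filter, a common library total and leaving out each library, and, chosen after seeing the data, a block on column numbers.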

Additional observations from a re-analysis of the deposited data

How the results depend on the processing

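All 6 genes kept their direction under every alternative run, and with a library left out the log2 fold changes stayed within the spread between replicates (Cbln1 6.25 to 7.18, Lgi1 -5.33 to -4.74, Lrrtm4 -5.04 to -3.43, Colq -5.45 to -4.22, Arfgef3 -5.70 to -4.83, Lypd1 -4.74 to -3.72). The size depended on the pseudocount, since 1 group of each gene lies near 0: at 0.1 per 1000000 it was 9.01 for Cbln1, -6.45 for Lgi1, -5.68 for Lrrtm4 and -5.09 for Lypd1. At 2 per 1000000 it was 4.75 for Cbln1, -3.36 for Lgi1, -2.88 for Lrrtm4, -3.51 for Colq, -4.19 for Arfgef3 and -2.81 for Lypd1. The count of all genes called ranged from 325 to 1271 with a library left out, against 1070, and that of partner and family genes from 2 to 18, against 17. A common library total gave 78.9% of calls as higher, against 61.4%, and moved the median log2 fold change by 0.31.

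A replicate block on the numbers in the column names, which match no replicate number of the labels, gave -5.55 for Lgi1 and -5.97 for Arfgef3. It called 30 partner and family genes (27.8%, against 9.58% of all tested genes in that fit). Only UB2 (S2 and S6) and UB3 (S3 and S7) occur in both groups, so S4 and S5 add nothing to these fold changes. Deviations of the 2 pairs of libraries with the same number correlated at 0.251 and -0.223. With 2 pairs of opposite sign, this cannot tell whether the numbers pair the samples. The planned block on the labels' replicate numbers and the count models were not run, because the columns carry no such numbers and only part of the values are whole reads.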

Other observations

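Cbln1 was 1 of 9 genes that were at 0 in all 3 controls and at 1 per 1000000 or more in each knockout, a set picked from these values and given with no test. Among the others were the mast cell tryptase gene Tpsab1, at 151, 998 and 291 in S5, S6 and S7, and the stromelysin gene Mmp10, at 73.5, 302 and 186. The mast cell protease gene Mcpt1, at 35.3, 406 and 57.3, and the antibacterial lectin gene Reg3g, at 43.1, 101 and 239, were also among them. Among these 5 genes the highest knockout was S7 for Cbln1 and Reg3g and S6 for Tpsab1, Mmp10 and Mcpt1.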
